A study of Homo sapiens with 3 samples.

Results

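The 46 genes of this report encode core subunits of the major spliceosome, the RNA-protein machine that removes introns from pre-mRNA. They are given by a list of names that uses no measured value, although the list was chosen with earlier results of these data known. They comprise 7 Sm ring proteins, 7 LSm ring proteins, and 3 U1 and 10 U2 snRNP proteins. The others are 3 proteins that recognise the branch point and the 3' splice site, and 8 of the U4/U6.U5 tri-snRNP. To these are added 4 proteins of the PRP19 complex and catalytic scaffold, and 4 DEAH-box helicases. Of the 46, 45 were found by name in all 3 libraries, among 55827 gene names in all, and LSM8 was not. Each of the 45 had a mean FPKM of at least 1, and of at least 5, so that none was lost to the filter on low values, and none was listed at 0 in any library.

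The libraries were made from PLC, an established human hepatocellular carcinoma line, 48 hours after infection with viruses carrying short hairpin RNAs. Their hairpins targeted DIS3L2 (the shDIS3L2 library), HNRNPU (the shHNRNPU library) or no gene (the control library, a non-targeting hairpin), with 1 library per group, and infection with a hairpin virus is common to all 3. DIS3L2 is an exoribonuclease that degrades uridylated RNA, and hnRNP U is a nuclear RNA-binding protein that acts in splicing. The study's title places the promotion of liver cancer by DIS3L2 in alternative splicing mediated by hnRNP U, and how many hairpins per target there were, and whether they were pooled, is not stated there or in the labels.

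The spliceosome is built anew on each intron from small nuclear ribonucleoproteins (snRNPs), each an snRNA with its proteins. Sm proteins form a ring on the U1, U2, U4 and U5 snRNAs, and LSm proteins form a similar ring on U6. U1 binds the 5' splice site, SF1 and U2AF mark the branch point and the 3' splice site, U2 then replaces SF1 at the branch point, and the tri-snRNP joins last, after which helicases remodel the assembly into its catalytic form. Because most introns need these proteins, their genes are active in nearly all dividing cells. hnRNP U is known to take part in U2 snRNP maturation.

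Of the 5 members whose level differed at least 2-fold from control by the size rule given with the results, SNRPF, CRNKL1 and DHX38 had a locus with no other name in any library. The DNA before their RefSeq transcription starts (GRCh38.p14) is shown as an example of the promoters whose motifs are compared further on. The stretches run from 250 to 51 bases before the start, on the strand of the gene, at chr12:95858702-95858901 (+), chr20:20056097-20056296 (-) and chr16:72093597-72093796 (+), and capitals mark matches on either strand to the CCAAT box, bound by NF-Y, to the ETS core (CCGGAAG) or to the GC box of SP1 (GGGCGG).
SNRPF: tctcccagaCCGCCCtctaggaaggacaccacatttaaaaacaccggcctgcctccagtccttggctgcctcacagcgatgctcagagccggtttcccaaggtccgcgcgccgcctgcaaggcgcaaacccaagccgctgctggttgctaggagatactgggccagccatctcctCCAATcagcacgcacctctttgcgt
CRNKL1: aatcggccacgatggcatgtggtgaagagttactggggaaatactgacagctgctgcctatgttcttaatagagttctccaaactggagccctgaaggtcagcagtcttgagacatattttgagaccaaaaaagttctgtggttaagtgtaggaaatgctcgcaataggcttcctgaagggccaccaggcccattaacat
DHX38: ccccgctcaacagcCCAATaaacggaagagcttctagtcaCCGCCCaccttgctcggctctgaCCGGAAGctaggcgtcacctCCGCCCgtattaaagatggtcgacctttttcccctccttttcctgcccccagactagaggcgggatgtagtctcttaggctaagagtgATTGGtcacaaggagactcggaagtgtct
The SNRPF stretch holds 1 GC box and 1 CCAAT box, the DHX38 stretch 2 GC boxes, 2 CCAAT boxes and 1 ETS core, and the CRNKL1 stretch no match.

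Levels are in FPKM, which divides a gene's fragments by its transcript length and by the library's mapped fragments, so that genes can be compared per length. Depth, estimated from single-exon genes, was 18.3 M fragments for shDIS3L2, 20.07 M for shHNRNPU and 22.98 M for control. A range in parentheses after an FPKM is its deposited interval, taken as 95%, which describes the precision of that estimate but no spread among cultures. Without replicates, none of the differences has a test. DIS3L2 stood at 3.23 FPKM (2.31 to 4.15) in shDIS3L2 and 7.61 (6.70 to 8.53) in control, and HNRNPU at 33.5 (31.8 to 35.2) in shHNRNPU and 178 (172 to 184) in control, with log2 ratios of -1.03 and -2.38, so that each target was lower in its own library. In the other knockdown each was above control with intervals apart, DIS3L2 at 11.2 FPKM (10.04 to 12.4) in shHNRNPU and HNRNPU at 232 (224 to 241) in shDIS3L2, with log2 ratios of 0.50 and 0.38. Both loci were merged with an overlapping name, AC068134.10 and HNRNPU-AS1. Of 11 hepatocyte markers, 4 were called lower against control in each knockdown and 1 higher in shDIS3L2 (FGB), and ALB stood at 0.856, 5.21 and 11.8 FPKM in shDIS3L2, shHNRNPU and control. Their summed level was 3271, 7194 and 12451 FPKM in the same order, of which SERPINA1 alone held 2865, 6710 and 11439. The median over the 11 markers was 11.6, 14.5 and 19.0 FPKM. The part of that sum in the ratios of spliceosome genes was not tested. Of 9 markers of leukocytes, macrophages, endothelial and stromal cells, 7 were under 1 FPKM in all libraries (PTPRC, VWF and CDH5 were listed at 0 in shDIS3L2 and control), PECAM1 was not matched, and CD68 shared a merged locus. In bulk RNA, fewer cells of a type and less RNA per cell cannot be told apart. The control table holds no mitochondrial entries, against 11 and 10 in shDIS3L2 and shHNRNPU, and whether this bears on the scale of every ratio against control was not tested.

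Core spliceosome genes were expressed at high levels in all 3 libraries. Their median was 74.0 FPKM in shDIS3L2, 100.4 in shHNRNPU and 88.4 in control, and the median member stood at percentile 84.9, 88.5 and 87.3 of the 11452 loci tested, which are those with a mean FPKM of at least 1. The highest were LSM7 in shDIS3L2 (814 FPKM) and SNRPB, at a merged locus, in shHNRNPU and control (816 and 673). The lowest were CDC5L in shDIS3L2 (7.31) and CRNKL1 in shHNRNPU and control (7.93 and 3.17). Summed over the 45 genes, the level was 6917 FPKM in shDIS3L2, 6986 in shHNRNPU and 6734 in control. Sm ring genes held the largest part of that sum, with 2150, 2395 and 1992 FPKM, and the DEAH-box helicases the smallest, with 136, 126 and 90.9. The ratio of a gene's highest to its lowest library had a median of 1.46 over the members, against 1.77 over 10754 tested loci above 0, and ran from 1.04 for SF1 to 4.64 for CRNKL1. It stayed under 1.5 for 25 members and under 2 for 37.

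**Figure D1:**
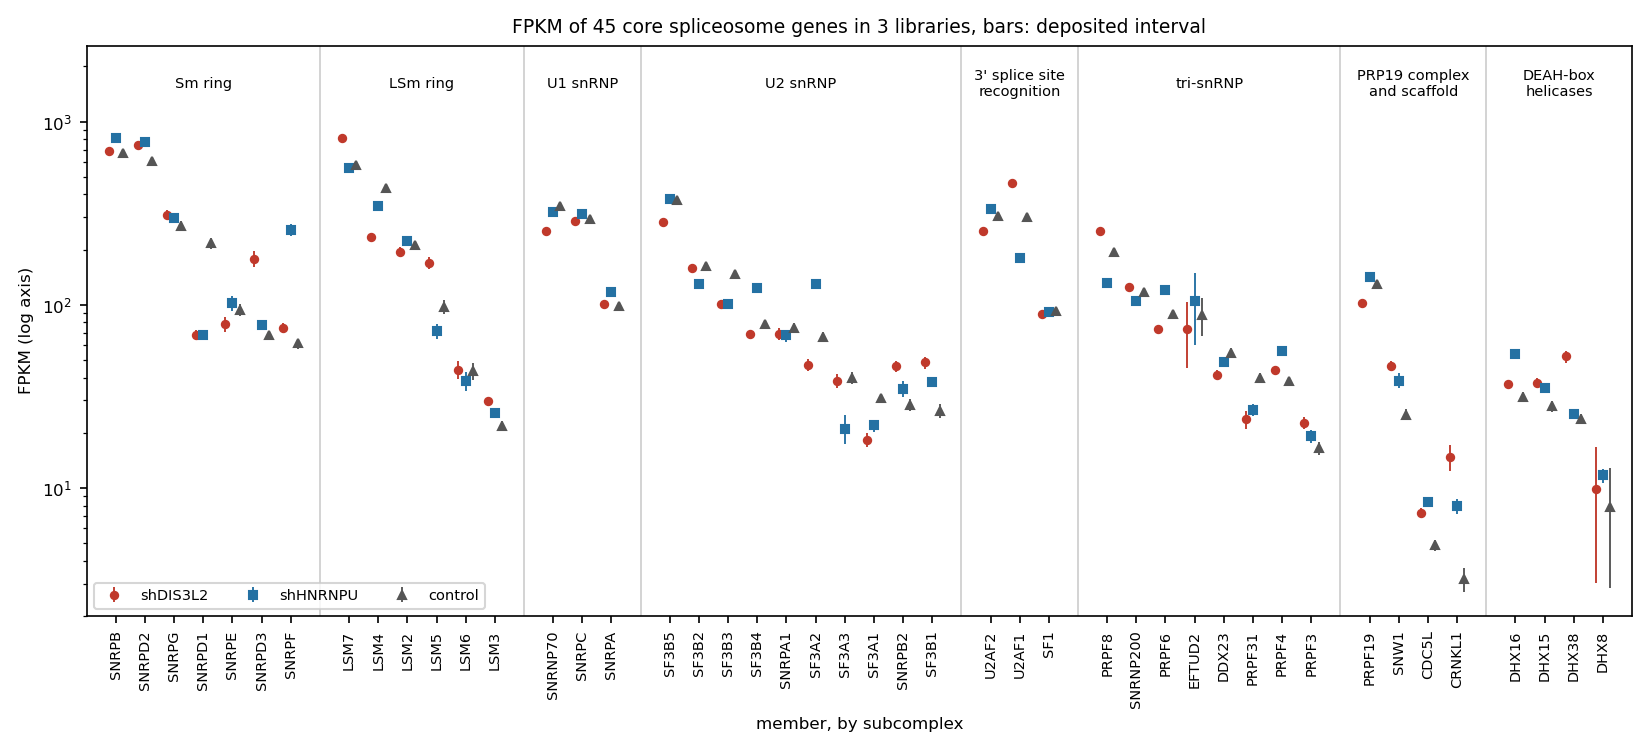
FPKM (log axis) of the 45 core spliceosome genes by subcomplex, with points for shDIS3L2, shHNRNPU and control and bars for the deposited intervals. Most genes have their 3 points close together, while SNRPD1 (68.3, 68.5 and 216 FPKM) and SNRPF (74.8, 256 and 61.4) have 1 point apart.

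The size rule for a call, higher or lower, was a log2 ratio of at least 1 or at most -1, taken on FPKM plus a pseudocount of 1, with deposited intervals that did not overlap and the status OK in both libraries. With shDIS3L2 set against control, SNRPD3, CRNKL1 and DHX38 were called higher and SNRPD1 lower, and the other 41 members were not called. That is 3 of 45 higher, beside 8.54% of all tested loci, and 1 of 45 lower, beside 6.78%, with 15.3% of loci called either way. The median log2 ratio was 0.03 over the members (-0.072 after rescaling by the median of ratios) and 0.09 over all tested loci. Intervals lay apart for 19 members higher in shDIS3L2 and 14 lower, and overlapped for 12, while over all loci they lay apart for 32.9% higher and 24.8% lower, 57.7% in all. The members' balance turned after the same rescaling, to 15 higher and 17 lower. Core spliceosome genes are abundant and have narrow intervals, so the share among the 7001 loci in the same range of mean FPKM, 38.6% higher and 30.2% lower, is given beside the members' 42.2% and 31.1%.

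With shHNRNPU set against control, SNRPF and CRNKL1 were called higher and SNRPD1 lower, and 42 members were not called. All loci gave 7.47% called higher and 6.87% lower, or 14.3% either way. Members had a median log2 ratio of 0.13 (-0.024 after the same rescaling), and all loci one of 0.11. Without sign, the median log2 ratio of the members was 0.38 in shDIS3L2 and 0.32 in shHNRNPU, against 0.43 and 0.41 for loci of like level. Intervals lay apart for 18 members higher and 12 lower, against 34.6% and 23.2% (57.8% together) of all loci and 39.6% and 28.5% of loci of like level. After rescaling by the median of ratios that balance also turned, to 12 higher and 18 lower. Both knockdowns were compared with the same control library, so a control value that is high or low enters both sets of ratios. Set directly against shDIS3L2, shHNRNPU had 2 members called higher (SNRPF and SF3A2) and 4 lower (SNRPD3, LSM5, U2AF1 and DHX38), where 9.24% and 10.2% of all loci were called, 19.4% in all. In that comparison intervals lay apart for 18 members higher and 15 lower, against 31.3% and 28.4% (59.7% together) of all loci, and for 14 higher and 15 lower after the rescaling. As deposited, the members' shares with intervals apart were near those of loci of like level. Their shares called by size were below those of all loci in all 3 pairs, a difference that was not tested. Among loci of like level, 8.40% were called higher and 6.53% lower in shDIS3L2 against control. The shares were 6.38% and 7.11% in shHNRNPU against control, and 8.78% and 10.8% in the direct comparison. The members' counts are small, and the 3 pairs are drawn from the same 3 libraries.

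**Figure D2:**
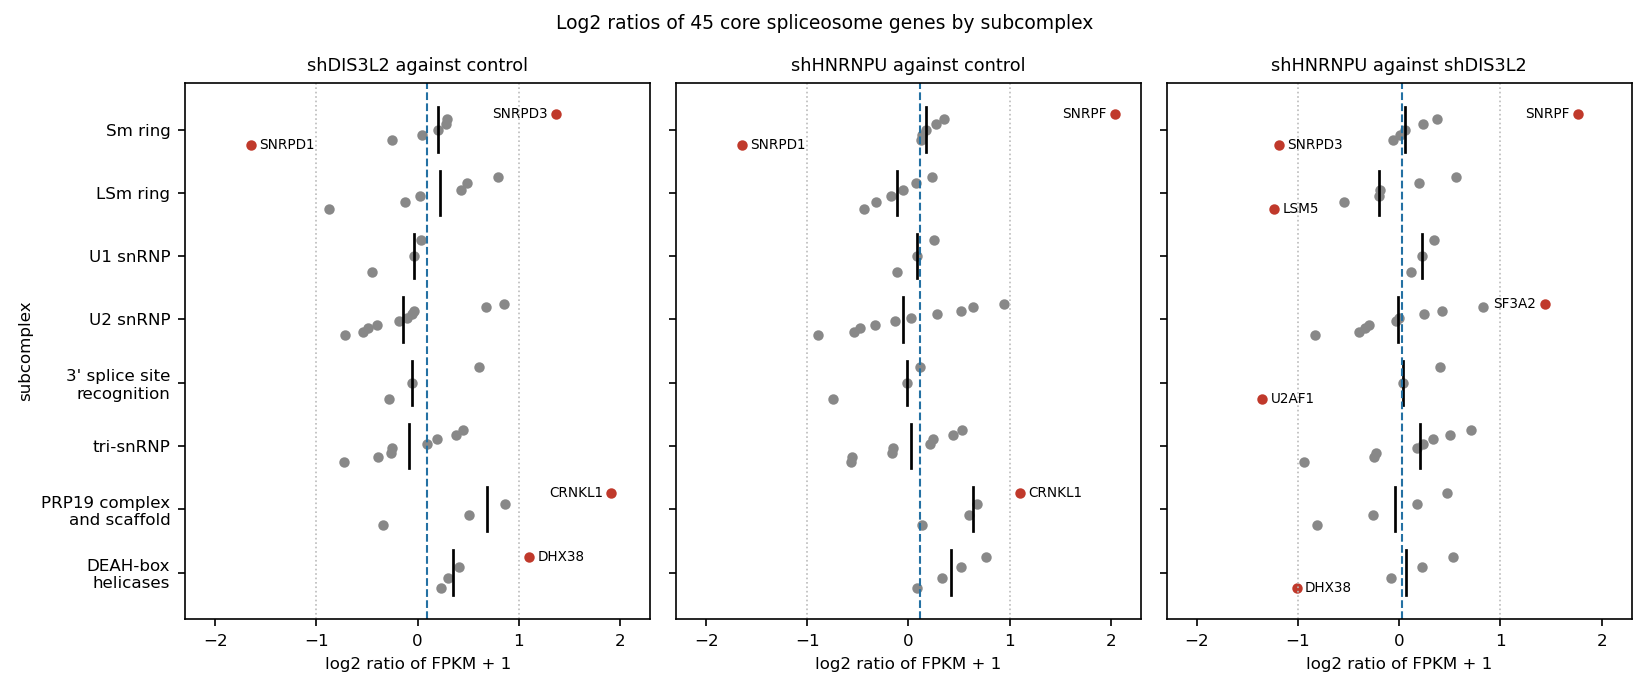
Log2 ratio of FPKM plus 1 for each core spliceosome gene, grouped by subcomplex, in shDIS3L2 against control and shHNRNPU against control. Most genes lie between -0.5 and 0.5 (31 and 29 of 45), and SNRPD1 lies near -1.65 in both.

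Sm proteins, the ring that stabilises the snRNAs and is loaded by the SMN complex, included 3 of the 5 members called against control. In each knockdown 1 of the 7 Sm genes was called higher and 1 lower. Of all loci, 15.3% were called either way in shDIS3L2 and 14.3% in shHNRNPU, and 7 genes are few to set against such shares. SNRPD1, which encodes SmD1, stood at 68.3 FPKM (64.0 to 72.5) in shDIS3L2, 68.5 (64.2 to 72.7) in shHNRNPU and 216 (202 to 230.1) in control. Both knockdowns were low and near each other, and control was high, with log2 ratios of -1.65 and -1.64. SNRPD1 lay at 19192228 to 19213485 of chromosome 18 in hg19, the build of all gene positions given here, and shared a merged locus with RP11-13N13.2 in every library. SNRPD3, which encodes SmD3, stood at 178 FPKM (161 to 195) in shDIS3L2, 77.3 (72.6 to 82.1) in shHNRNPU and 68.2 (64.2 to 72.3) in control. Here shDIS3L2 alone was high, and the intervals of shHNRNPU and control lay just apart. The log2 ratio was 1.37 for shDIS3L2 against control, 0.18 for shHNRNPU against control and -1.19 for shHNRNPU against shDIS3L2. Its locus, on chromosome 22 at 24951471 to 25024972, was merged with GGT1 and overlapped GUCD1, which stood at 39.6 FPKM in shDIS3L2, 62.0 in shHNRNPU and 63.5 in control, and since no label calls the kit stranded, reads of overlapping genes cannot be told apart. SNRPF, which encodes SmF, stood at 74.8 FPKM (70.0 to 79.6) in shDIS3L2, 256 (236 to 276) in shHNRNPU and 61.4 (57.5 to 65.3) in control. It was high in shHNRNPU, and its log2 ratio was 2.04 against control and 1.76 against shDIS3L2. SNRPF lay on chromosome 12 at 96252706 to 96297606, a locus with no other name, and overlapped CCDC38, listed at 0 in all libraries.

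None of the other Sm genes was called. SNRPB, for SmB and the alternatively spliced SmB', stood at 694 FPKM in shDIS3L2, 816 in shHNRNPU and 673 in control. SNRPD2, for SmD2, stood at 746, 778 and 609 in the same order, and its locus was merged with FBXO46 in shDIS3L2 only. SNRPG, for SmG, stood at 310.4, 297 and 270.4 FPKM, and SNRPE, for SmE, at 78.2, 102 and 93.3. The ring holds its proteins in equal number, whereas their FPKM in control ran from 61.4 (SNRPF) to 673 (SNRPB). The SNRPB locus was merged with ZNF343 and RP4-734P14.4 in every library. The median log2 ratio over the 7 Sm genes was 0.20 for shDIS3L2 and 0.18 for shHNRNPU, both against control.

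**Figure D3:**
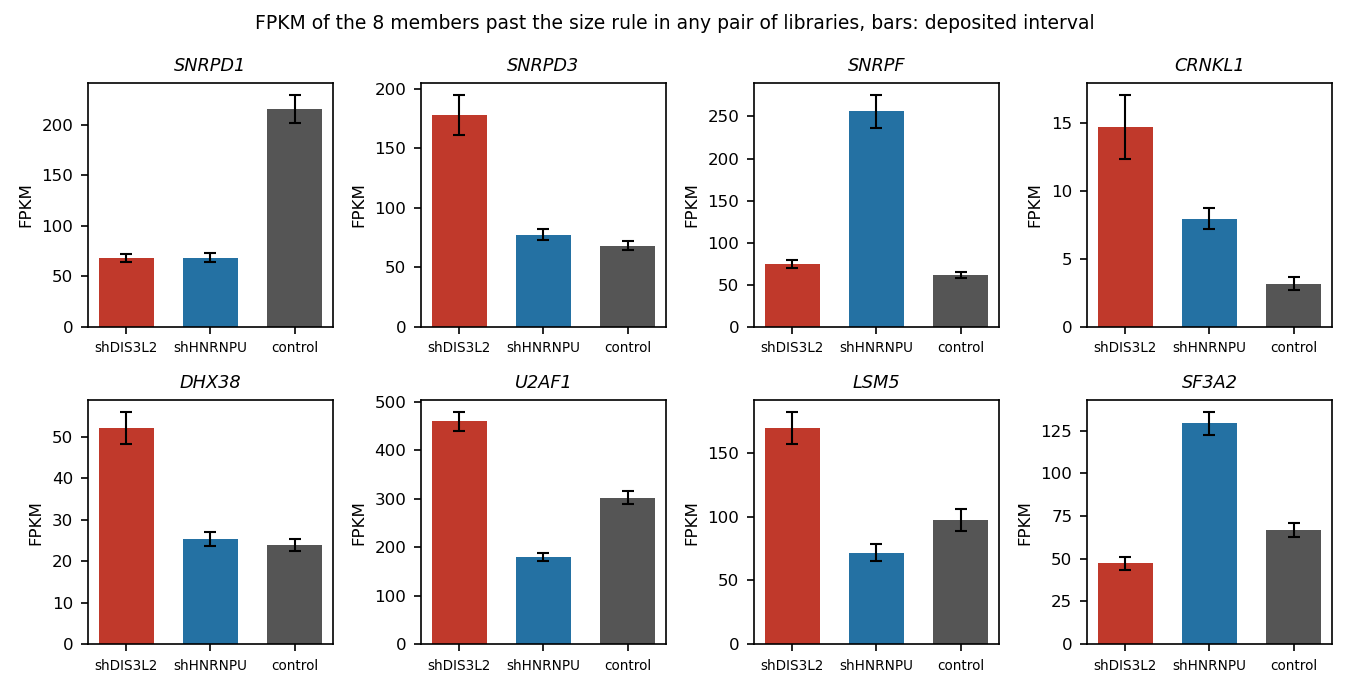
FPKM in shDIS3L2, shHNRNPU and control of the 8 core spliceosome genes called in at least 1 pair of libraries, with deposited intervals as bars. SNRPD1 is highest in control, CRNKL1, DHX38, SNRPD3, LSM5 and U2AF1 are highest in shDIS3L2, and SNRPF and SF3A2 are highest in shHNRNPU.

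LSm ring genes, whose products bind the 3' end of U6 snRNA, had 0 of 6 matched members called against control. Of all loci, 15.3% were called either way in shDIS3L2 and 14.3% in shHNRNPU, and 6 genes are few to set against such shares. LSM5 stood at 169.8 FPKM (157 to 182) in shDIS3L2, 71.5 (64.7 to 78.2) in shHNRNPU and 97.5 (89.0 to 106) in control. The 3 intervals lay apart from each other, with log2 ratios against control of 0.79 for shDIS3L2 and -0.44 for shHNRNPU, and the direct ratio of shHNRNPU to shDIS3L2, -1.24, was called lower. LSM4 was lower in both knockdowns with intervals apart, at 234 FPKM (223 to 246) in shDIS3L2, 345 (330.5 to 360.2) in shHNRNPU and 432 (415 to 449) in control (-0.88 and -0.32). LSM3, the least abundant of the ring, stood at 29.6, 25.8 and 21.8 FPKM in that order, with log2 ratios of 0.43 and 0.23. LSM7 stood at 814, 559 and 580.2 FPKM, LSM2 at 194, 223 and 211, and LSM6 at 44.2, 38.4 and 43.5. All intervals of LSM6 overlapped. LSM8 completes the nuclear ring; an entry under NAA38, a RefSeq synonym of LSM8, lay on chromosome 7 at 117824086 to 117832878 and stood at 87.3 FPKM (79.3 to 95.3) in shDIS3L2, 72.0 (63.8 to 80.2) in shHNRNPU and 67.5 (60.6 to 74.5) in control. NAA38 is also the name of another gene, so this entry entered no count. The median log2 ratio of the ring was 0.22 for shDIS3L2 and -0.12 for shHNRNPU.

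U1 snRNP genes, for the particle that pairs with the 5' splice site, had 0 of 3 members called in any pair. Of all loci, 15.3% and 14.3% were called against control in shDIS3L2 and shHNRNPU, and 19.4% between the knockdowns. For such shares 3 genes are few. SNRNP70, for U1-70K, which binds stem-loop 1 of U1 snRNA, stood at 252 FPKM (243 to 261) in shDIS3L2, 319 (308 to 329.9) in shHNRNPU and 344 (333 to 355) in control, a log2 ratio of -0.45 and -0.11. SNRPA, which binds another stem-loop of the same RNA, stood at 100.4, 117 and 98.4 FPKM, with log2 ratios of 0.03 and 0.25. SNRPC, whose product steadies the pairing with the 5' splice site, stood at 286, 311 and 294 FPKM, and its intervals overlapped in all pairs.

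U2 snRNP genes gave 0 of 10 called members against control in either knockdown, by size and intervals. Of all loci, 15.3% were called either way in shDIS3L2 and 14.3% in shHNRNPU, and 10 genes are few to set against such shares. Of the 10, intervals lay apart for 2 higher and 5 lower in shDIS3L2, beside 38.6% and 30.2% of loci of like level, and for 4 higher and 4 lower in shHNRNPU, beside 39.6% and 28.5%. The median log2 ratio was -0.15 and -0.06. SF3B1, the largest SF3b subunit, which holds the branch point helix, had the highest ratio of the group in shDIS3L2, with 48.4 FPKM (44.7 to 52.0) there, 38.0 (35.8 to 40.3) in shHNRNPU and 26.3 (24.0 to 28.6) in control. Both knockdowns were above control, with log2 ratios of 0.86 and 0.52. SF3A1, of SF3a, had the lowest in shDIS3L2, with 18.3 FPKM (16.8 to 19.9), 21.9 (20.3 to 23.6) in shHNRNPU and 30.9 (29.1 to 32.7) in control, and both knockdowns were below control, at -0.72 and -0.48. The other SF3a genes parted in shHNRNPU. SF3A2 stood at 47.1 FPKM (43.6 to 50.7) in shDIS3L2, 129 (123 to 136) in shHNRNPU and 66.9 (62.9 to 70.8) in control. Its log2 ratios against control were -0.50 and 0.94, and the ratio of shHNRNPU to shDIS3L2, 1.44, was called higher. SF3A2 lay on chromosome 19 at 2236520 to 2252072, merged with AMH and MIR4321 and overlapping PLEKHJ1, which stood at 66.0 FPKM in shDIS3L2, 82.1 in shHNRNPU and 112 in control. SF3A3 was low in shHNRNPU, at 21.1 FPKM (17.3 to 24.9), against 38.3 (34.9 to 41.7) in shDIS3L2 and 39.9 (37.0 to 42.8) in control, a log2 ratio of -0.89 against control. After rescaling by the median of ratios, SF3A3 was called lower in shHNRNPU against control.

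Among the other SF3b genes, SF3B3 was at 100.3 and 100.4 FPKM in shDIS3L2 and shHNRNPU, against 146 in control, a log2 ratio of -0.54 in both. SF3B4 stood at 69.1 FPKM in shDIS3L2, 123 in shHNRNPU and 78.9 in control, high in shHNRNPU with a log2 ratio of 0.64. SF3B2 stood at 159.5, 129 and 163 FPKM and SF3B5 at 282, 379 and 373, and neither was called in any pair. Of the proteins bound directly to U2 snRNA, SNRPA1 stood at 69.4, 67.9 and 74.8 FPKM with overlapping intervals, and SNRPB2, its partner, at 46.1, 34.7 and 28.4, higher in both knockdowns with intervals apart.

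Of the 3 genes that define the branch point and the 3' splice site before U2 binds, U2AF1 differed most. U2AF1, the small U2AF subunit, which reads the AG at the 3' splice site, stood at 459.9 FPKM (440.3 to 479.5) in shDIS3L2, 179.6 (171 to 188) in shHNRNPU and 302 (289 to 315) in control. It was above control in shDIS3L2 (0.60) and below it in shHNRNPU (-0.75), and the ratio of shHNRNPU to shDIS3L2, -1.35, was called lower. The locus was on chromosome 21 at 44513066 to 44527697. U2AF2, the large subunit, binds the polypyrimidine tract and pairs with U2AF1. It stood at 251 FPKM (242 to 261) in shDIS3L2, 332 (320.4 to 343) in shHNRNPU and 306 (296 to 316) in control. The deposited values of the subunits thus ran in opposite orders over the 3 libraries. However, the U2AF2 locus was merged with CCDC106, ZNF580 and ZNF581 in every library, while U2AF1 had a locus of its own. The part of the merged names in this contrast was not tested. SF1, the branch point binding protein, stood at 89.1, 91.3 and 92.5 FPKM and had the smallest spread of all members.

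Of 8 tri-snRNP genes, 0 were called in any pair. All loci gave 15.3% and 14.3% called against control in shDIS3L2 and shHNRNPU, and 19.4% between the knockdowns. For such shares 8 genes are few. PRPF8, which forms the centre of the catalytic core, stood at 253 FPKM (242 to 264) in shDIS3L2, 131 (127 to 135) in shHNRNPU and 194 (186 to 202) in control, with log2 ratios of 0.38 and -0.56 against control, so the knockdowns lay on opposite sides of it. PRPF31, which bridges U4/U6 and U5, was below control in both, at 23.7 FPKM (21.0 to 26.3) in shDIS3L2, 26.8 (24.8 to 28.8) in shHNRNPU and 39.8 (37.4 to 42.1) in control (-0.72 and -0.55). PRPF3 and PRPF4 bind U4/U6; PRPF3 stood at 22.7, 19.2 and 16.4 FPKM and PRPF4 at 43.8, 55.5 and 38.1. PRPF3 had the highest ratio of the group in shDIS3L2 (0.45) and PRPF4 in shHNRNPU (0.53). PRPF6, another bridging protein, stood at 73.8, 121 and 89.0 FPKM, high in shHNRNPU, although its locus had unlike bounds between libraries. That locus was merged with LINC00176 in shHNRNPU only. SNRNP200, the helicase that unwinds U4 from U6, stood at 124 FPKM in shDIS3L2, 104 in shHNRNPU and 117 in control, DDX23, a DEAD-box helicase that acts when U1 leaves the 5' splice site, at 41.4, 48.9 and 54.6, and EFTUD2, the GTPase of U5, at 74.0 (44.9 to 103), 105 (60.5 to 149) and 88.4 (67.9 to 109). EFTUD2 thus had overlapping intervals in all pairs, and wide ones.

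The PRP19 complex and scaffold genes had the highest median log2 ratios of the subcomplexes, 0.68 in shDIS3L2 and 0.64 in shHNRNPU, over 4 genes. CRNKL1, a scaffold protein known as Clf1 in yeast, stood at 14.7 FPKM (12.3 to 17.1) in shDIS3L2, 7.93 (7.17 to 8.70) in shHNRNPU and 3.17 (2.71 to 3.63) in control. Both knockdowns were above control and called higher, with log2 ratios of 1.91 and 1.10, and no intervals overlapped. In shHNRNPU the call ended with a pseudocount of 5 (0.66) and after rescaling by the median of ratios (0.97). CRNKL1 lay on chromosome 20 at 20015012 to 20036690 and overlapped C20orf26, listed at 0. SNW1 (SKIP) links the scaffold to the catalytic centre. It stood at 46.4 FPKM (43.5 to 49.3), 38.6 (34.9 to 42.2) and 25.1 (23.4 to 26.9), again with control lowest (0.86 and 0.60). The SNW1 locus was merged with AC008372.1 in shHNRNPU only. CDC5L, a core PRP19 complex protein, stood at 7.31, 8.36 and 4.86 FPKM, with log2 ratios of 0.50 and 0.68. PRPF19 itself, a ubiquitin ligase, stood at 102, 142 and 129 FPKM, lower in shDIS3L2 with intervals apart (-0.34) and overlapping in shHNRNPU (0.13).

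DEAH-box helicases drive the steps of the cycle in turn. DHX38 (Prp16 in yeast), which acts between the catalytic steps, stood at 52.2 FPKM (48.3 to 56.1) in shDIS3L2, 25.3 (23.6 to 27.0) in shHNRNPU and 23.8 (22.3 to 25.2) in control. shDIS3L2 was high and the others overlapped, with log2 ratios of 1.10 and 0.09 against control and -1.01 for shHNRNPU against shDIS3L2. Both calls ended with a pseudocount of 5, at 0.99 and -0.91. DHX38 lay on chromosome 16 at 72127461 to 72146811 and overlapped TXNL4B at its edge, at 11.8, 11.7 and 9.65 FPKM. DHX16 (Prp2), which activates the complex, stood at 37.0 FPKM (35.1 to 38.9) in shDIS3L2, 53.9 (51.4 to 56.5) in shHNRNPU and 31.3 (29.5 to 33.2) in control, the highest ratio of the group in shHNRNPU (0.76). DHX15 (Prp43), which takes the complex apart, stood at 37.4, 35.3 and 27.9 FPKM, above control in both. DHX8 (Prp22), which releases the mRNA, stood at 9.89 FPKM (3.04 to 16.7), 11.7 (10.7 to 12.7) and 7.87 (2.83 to 12.9), and its intervals, wide in shDIS3L2 and control, overlapped in all pairs.

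Deposited intervals also carry information on the fragments behind an estimate. If a gene's fragments followed its FPKM and the depth of the library, the relative width of its interval would shrink with the square root of their number. The depth used here was itself derived from interval widths of single-exon genes, so a width near the expected one is no independent check. For the members not called, the deposited width divided by the width expected in this way from the control library had a median of 0.993 in shDIS3L2 (quartiles 0.933 and 1.03) and 1.004 in shHNRNPU (0.974 and 1.05). These members ranged from 0.823 to 1.38 in shDIS3L2 and from 0.156 (DHX8) to 1.85 (EFTUD2) in shHNRNPU. SF3A3 (1.68), SF3B5 (1.67), SNW1 (1.54) and PRPF8 (0.626) also departed from 1 in shHNRNPU. Members not called differ less than 2-fold from control by selection, so their median is no baseline for the called members. SNRPD1, whose FPKM was lower in the knockdowns, had widths of 6.25% and 6.23% where 12.8% and 12.2% were expected, narrower than its level gives. SNRPD3 in shDIS3L2 had 9.65% against 4.10% expected, DHX38 7.46% against 4.61%, CRNKL1 16.1% against 7.58%, and SNRPF in shHNRNPU 7.73% against 3.33%, all wider than their level gives. CRNKL1 in shHNRNPU was the called member near its expected width, with 9.63% against 9.86%. FPKM also depends on the length of the transcripts assigned to a gene, and coding transcripts in GENCODE 29 run from 320 to 4909 bases for SNRPD1, 567 to 1763 for SNRPD3, 552 to 1389 for SNRPF, 500 to 4608 for DHX38 and 4009 to 4406 for CRNKL1. The part of assigned length or of fragment assignment in these ratios was not tested. Pseudogene entries stood near 0, and the 44 found for 9 members summed to at most 0.400 FPKM for a member.

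**Figure D4:**
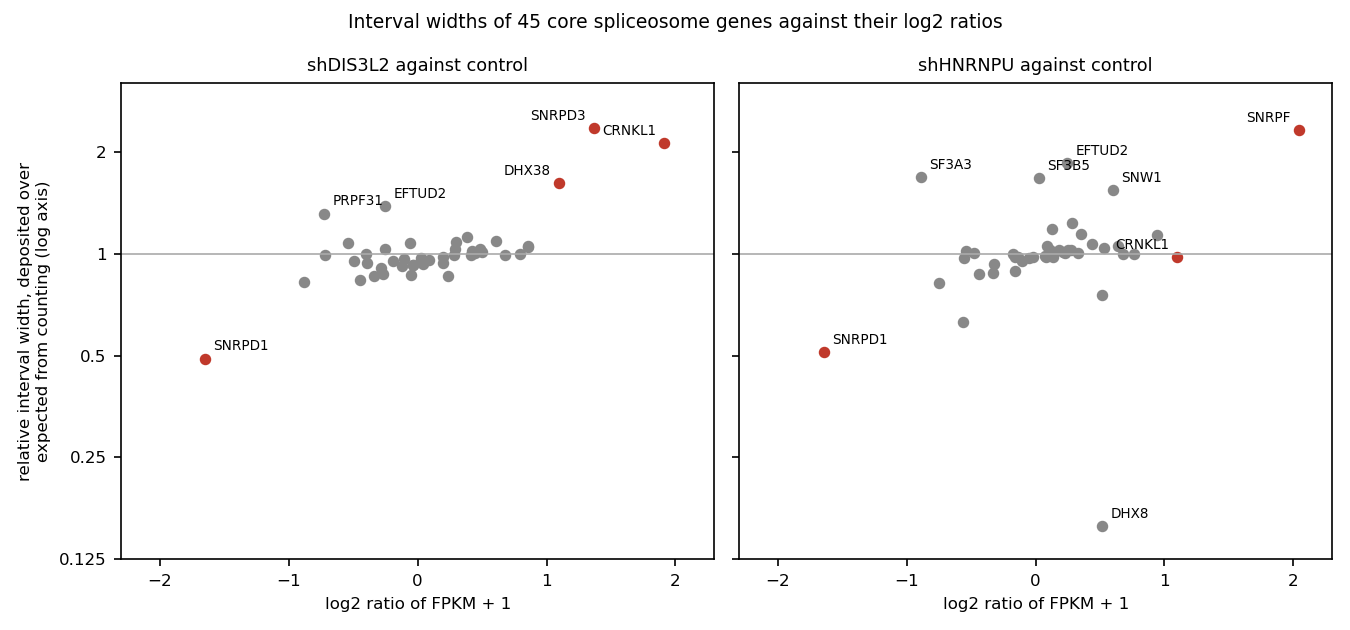
Relative interval width in shDIS3L2 and shHNRNPU, divided by the width expected from control by counting (log axis), against the log2 ratio of FPKM plus 1, for 45 core spliceosome genes; called genes are red. Most genes lie near 1, while SNRPD1 lies at 0.490 and 0.511, SNRPD3 at 2.35, CRNKL1 at 2.13 and 0.976, DHX38 at 1.62 and SNRPF at 2.32. DHX8, not called, lies at 0.156 in shHNRNPU.

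Other genes of the splicing pathway were taken from lists of 78 names, of which 76 were matched and 75 tested. The names not matched were SF3B6 and SNU13, while SF3B14 and NHP2L1 of the same lists were matched. BUD31 was listed at 0 in all libraries. Against control, shDIS3L2 had 3 of 75 called higher and 1 lower, and shHNRNPU 4 higher and 1 lower, below the 8.54% and 6.78%, and the 7.47% and 6.87%, of all loci. Their median log2 ratio was 0.24 and 0.27. Those called higher in shDIS3L2 were SNRNP48 (6.22 FPKM there, 1.61 in control) and ZCRB1 (41.4 and 18.1), both of the minor spliceosome, which removes a rare class of introns, and CWC22 (4.87 and 1.85), which loads the exon junction complex. DDX39B, the helicase UAP56, which helps U2 bind, was called lower in shDIS3L2, at 169.7 FPKM against 343 in control. In shHNRNPU the exon junction complex partners RNPS1 (350.3 FPKM against 138 in control) and SAP18 (384 against 153) were called higher, as were the tri-snRNP proteins PRPF38A (48.6 against 16.2) and SNRNP27 (53.8 against 25.5). CHERP, which binds U2 factors, was called lower in shHNRNPU, at 56.6 FPKM against 115 in control, a log2 ratio of -1.01. In every library CHERP shared a merged locus with MED26, SLC35E1, SMIM7 and others, and DDX39B with ATP6V1G2 and others. SNRNP27 was likewise merged with MXD1 and RNPS1 with AC009065.2, and ECI1 joined the RNPS1 locus in shHNRNPU only. The part of the merged names in these calls was not tested.

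By list, the minor spliceosome genes had a median log2 ratio of 0.47 in shDIS3L2 and 0.11 in shHNRNPU, over 8 genes. For 15 other PRP19-related and second-step genes the medians were 0.43 and 0.08, and intervals lay apart for 11 higher and 1 lower in shDIS3L2 and for 5 higher and 3 lower in shHNRNPU. Over all loci the shares by intervals were 32.9% higher and 24.8% lower in shDIS3L2, and 34.6% and 23.2% in shHNRNPU. For 10 other tri-snRNP genes the medians were 0.14 and 0.46, with 8 higher and 0 lower by intervals in shHNRNPU. Exon junction complex genes had 0.23 and 0.58 over 8 genes, the 16 snRNP assembly genes, with SMN and the Gemins, 0.04 and 0.16, and 11 other U2 and early factors 0.04 and 0.07. Relatives of the Sm and LSm proteins outside these rings had 0.36 and 0.41 over 7 genes. In the direct comparison 8 of the 75 were called higher in shHNRNPU than in shDIS3L2 and 3 lower, beside 9.24% and 10.2% of all loci, the highest being RNPS1 (1.69) and the lowest CWC15 (-1.32). The others called higher were PRPF38A, SART3, SMN1, GEMIN4, EIF4A3, SAP18 and LSM14A, and the others called lower CHERP and PPIL1. SMN1 is nearly identical to SMN2, so their values are uncertain.

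**Figure D5:**
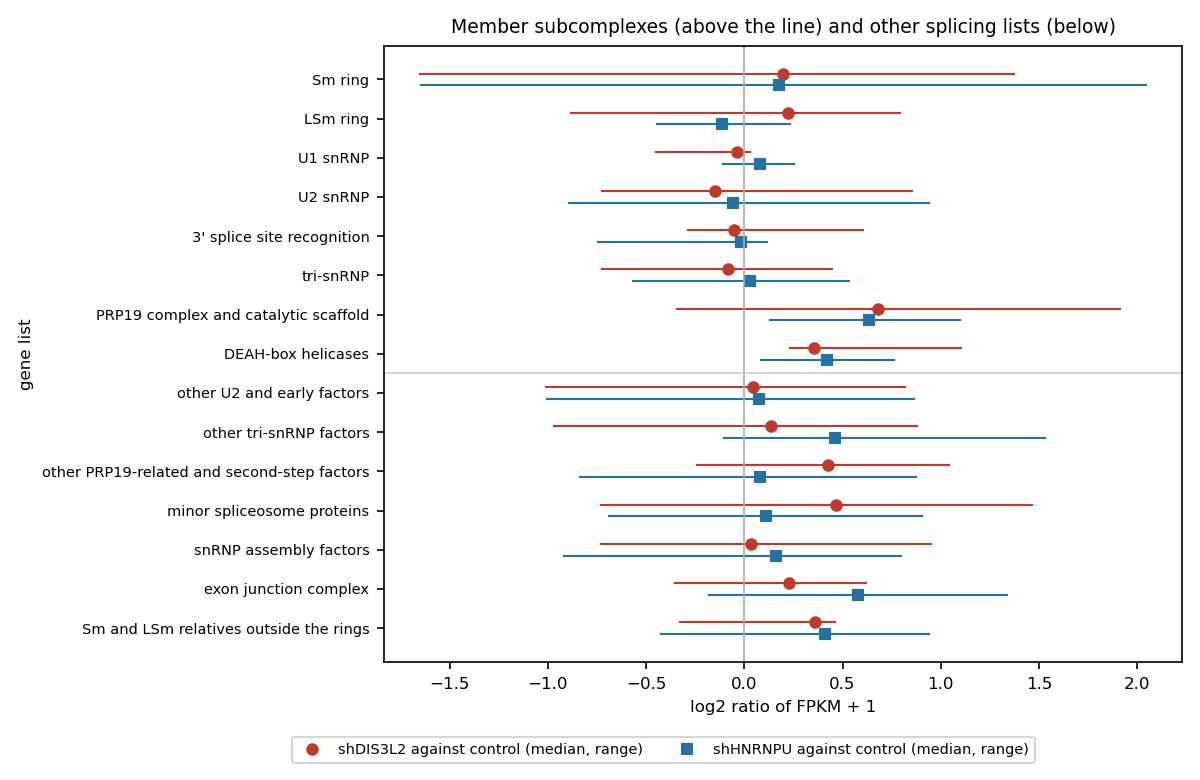
Median log2 ratio of FPKM plus 1 for each subcomplex and each list of other splicing genes, in shDIS3L2 against control and shHNRNPU against control. The PRP19 complex and catalytic scaffold lies highest, at 0.68 and 0.64, and the exon junction complex reaches 0.58 in shHNRNPU.

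Of the 46 members, 42 had a promoter window in RefSeq (GRCh38.p14), 300 bases from 250 before to 50 after the start. The ETS core CCGGAAG was in 20 of the 42, or 47.6%, against 10.7% of 27305 windows of the same length. GC boxes (GGGCGG) were in 64.3%, against 44.6%, and the palindromic NRF1 motif in 21.4%, against 6.28%. YY1 (AAGATGGCG) was in 11.9%, against 1.85%, CCAAT in 38.1%, against 35.7%, the E-box CACGTG in 4.76%, against 7.43%, and TATAAA in 2.38%, against 11.95%. Both strands were searched, no match of a motif overlapped one of another motif in the members, and the median GC content was 60.5%, against 58.3% for all windows. These are matches of letters and not sites. Of the stretches printed above, the DHX38 one alone holds an ETS core.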

How the data were processed

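RNA-seq of 3 PLC libraries was used, 1 per group, with groups taken from the sample labels. TopHat2 2.0.12, Cufflinks 2.2.1 and hg19 are named in the submitters' processing notes, and further options or the annotation are not given in the sources used. Per the file headers, the deposited values are FPKM per gene with both bounds of an interval and an estimation status. The interval's level is not in the headers and was taken as the Cufflinks default of 95%. Assembly was separate for each library, as the deposited identifiers show, so names can be merged at a locus. Genes were matched by name (split at commas), keeping the locus with the highest mean FPKM where a name had several. Names sharing a locus were counted once, giving 11452 loci with a mean FPKM of at least 1. Of the 45 members, 34 had a locus of their own with like bounds, and 11 shared one in at least 1 library. The 11 were SNRPB, SNRPD1, SNRPD2, SNRPD3, SF3A2, SF3B2, SF3B3, U2AF2, PRPF6, SNW1 and DHX8.

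Log2 ratios used a pseudocount of 1 FPKM, which understates differences of low genes. Fragment counts are not in the tables. Estimates up to 20 fragments came out whole within 0.02 for 78.6%, 78.0% and 78.0% in shDIS3L2, shHNRNPU and control, too few for a count test, so none was run. Depths came from the deposited interval widths of 88, 85 and 78 single-exon genes of at least 2000 bases, kept where the fragments implied by the width came out whole. The median interval reached 6.02%, 5.86% and 5.83% of the FPKM to either side for members, and 11.7%, 11.4% and 10.7% for all tested loci, and covers no variation between cultures. With 1 library per group no p-value was computed, and the counting of calls was tested on simulated data. The simulated noise came from the deposited interval widths alone, so it held no variation between cultures and does not measure how many calls here are false. Members, lists and thresholds were chosen with earlier results of these data known. Named were all members, the targeted genes, and called genes of the other lists. Promoters and gene synonyms came from RefSeq (GRCh38.p14, 42 of 46 members), and transcript lengths from GENCODE 29. Alternatives were pseudocounts of 0.1 and 5, filters, rescaling, size rules, summed loci and sole-name loci. Python 3.11.15, numpy 2.4.6, pandas 2.3.3 and matplotlib 3.10.9 were used.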

Additional observations from a re-analysis of the deposited data

How the results depend on the processing

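Of 132 recomputed summary values under 10 other settings, 116 stayed within 1.5 times the count or 0.1 of the median and 16 moved. Some could not move, so the 116 overstate how stable the results are. All members had a mean FPKM of at least 5 and none had several loci, so both filter settings and summed loci repeated the main values. A pseudocount cannot alter whether intervals overlap. The tolerance also kept as unmoved the turned balances by intervals given below. No called member changed sign, but the members' medians against control did. Restricted to the 34 members with a locus of their own and like bounds, the calls lower against control came to 0 in both knockdowns, since SNRPD1 shares its locus; 9 members were lower by intervals in shDIS3L2, 11 were higher by intervals in shHNRNPU, and 1 was called higher in shHNRNPU against shDIS3L2. A size rule of 1.5-fold called 8 members higher and 4 lower in shDIS3L2, 7 higher and 3 lower in shHNRNPU, and 4 higher and 7 lower in shHNRNPU against shDIS3L2. Rescaling by the median of ratios moved the median of all loci to 0.00 in shDIS3L2 and -0.01 in shHNRNPU, and that of the members to -0.072 and -0.024, and turned the balance of members apart by intervals to 15 higher and 17 lower in shDIS3L2 and 12 higher and 18 lower in shHNRNPU; in shHNRNPU it then called 1 member higher and 2 lower, with CRNKL1 at 0.97 and SF3A3 added. A pseudocount of 5 called 1 higher in shHNRNPU, with CRNKL1 at 0.66, and put DHX38 at 0.99 in shDIS3L2 against control and at -0.91 in shHNRNPU against shDIS3L2. No paired analysis was possible because each group has 1 library. The wide intervals of EFTUD2 and DHX8 limit what can be seen of them, and no value measures the variation between cultures.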
